A study of Mus musculus with 8 samples.

Results

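The genes described here are 10 immediate early genes of the mouse: Fos, Fosb, Jun, Junb, Egr1, Nr4a1, Atf3, Dusp1, Ier2 and Ier3. They were found by their symbols among the 27962 gene names and 41174 non-control probes of the array. All 10 had a probe, and Ier2 and Junb each had 2, which gives 12 probes. All 12 were well above background on all 8 arrays, by the scanner software's own call, so all 12 were among the 33239 probes tested.

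The arrays measured RNA from the whole pancreas of mice on the C57BL/6 strain at 1 week of age, kept with their mothers and given no treatment. There were 4 wild-type (WT) samples and 4 from mice labelled Glis3KO2, a knockout of Glis3, which encodes a zinc finger transcription factor of pancreatic beta cells. The labels used here do not say which part of Glis3 is missing, from which litters the mice came, the sex of the mice, or how long the tissue waited before RNA was taken. The p-values below therefore cover only the spread among these samples, which may be technical. The WT arrays shared 1 slide and the Glis3KO2 arrays a second, and the effects of slide and of genotype cannot be told apart.

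Immediate early genes are switched on within minutes of a stimulus such as a growth factor, depolarisation or cell stress, from transcription factors that the cell already holds. Fos and Jun proteins pair into the transcription factor AP-1, and other immediate early genes encode further transcription factors or the phosphatases that end the signal. Because cutting, warming or dissociating a tissue can also induce them, they are often read as a sign of how a sample was handled. Their messenger RNAs are short-lived, and many carry AU-rich elements in the 3′ end that speed decay.

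The stretches that follow show letters that several of these genes share and that played no part in choosing them. The first group is upstream of the annotated start, read 5′ to 3′ on the gene's own strand, from RefSeq on build GRCm38.p6. Capitals mark TGACG, or CGTCA where it lies on the opposite strand, which is the core of the site that CREB and ATF proteins bind. In Fos they also mark the TATA box TATAAA, in Dusp1 the full palindrome TGACGTCA, and in Jun the variant TGACATCA. Fos lies at chr12:85473810-85473889 (plus strand), Fosb at chr7:19310046-19310115 (minus), Jun at chr4:95052223-95052292 (minus), Atf3 at chr1:191183334-191183393 (minus), Nr4a1 at chr15:101266746-101266825 (plus) and Dusp1 at chr17:26508593-26508672 (minus).
Fos: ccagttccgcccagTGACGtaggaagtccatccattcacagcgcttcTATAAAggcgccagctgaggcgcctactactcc
Fosb: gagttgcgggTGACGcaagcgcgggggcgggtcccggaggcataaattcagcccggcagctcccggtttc
Jun: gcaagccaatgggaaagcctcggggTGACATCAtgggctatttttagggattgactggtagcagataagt
Atf3: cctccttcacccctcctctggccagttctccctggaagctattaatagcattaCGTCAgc
Nr4a1: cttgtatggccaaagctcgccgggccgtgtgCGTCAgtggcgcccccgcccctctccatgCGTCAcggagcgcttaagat
Dusp1: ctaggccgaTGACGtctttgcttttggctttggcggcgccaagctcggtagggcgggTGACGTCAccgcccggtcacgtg

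A promoter window of 250 bases before to 50 after the start was matched for 8 of the 10 genes, all but Egr1 and Ier2. On either strand TGACG was in 6 of these 8 windows (Fos, Fosb, Junb, Dusp1, Atf3 and Nr4a1), against 20.8% of 32851 mouse promoter windows of the same length. The palindrome TGACGTCA, which contains TGACG, was in Dusp1 alone, against 1.79% of all windows. TGACATCA was in Jun alone, against 3.62%. TATAAA was in Fos and Junb, against 13.6%. The AP-1 site TGACTCA was in none of the 8, against 5.20%, and the CArG box bound by serum response factor was in none, against 1.63%. Sequence outside these windows, and any of Egr1 and Ier2, was not searched, so a motif in none of the 8 may lie elsewhere. These motifs were chosen with the sequences in view, and a match is a description of letters in a window.

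The second group comes from the array's own probes, read 5′ to 3′, and shows the AU-rich pentamer ATTTA in capitals. The pentamer was in the probes of Jun, Egr1, Ier3 and Dusp1, 4 of the 12 probes (33.3%), against 9.16% of all 41174 probes. Build mm7 places the Jun probe at chr4:94441779-94441838 (minus strand), the Ier3 probe at chr17:33924245-33924304 (plus), and 58 of the 60 bases of the Dusp1 probe at chr17:24690398-24690455 (minus). No exon annotation of that build was used here.
Jun probe: atcataggaaagATTTAgtaattagctg
Ier3 probe: cacagatATTTAttacgATTTAtagggt
Dusp1 probe: gtttttacctttATTTAtttttgtgtag

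Each array was scaled by subtracting the log2 of its 75th percentile, which lay at a signal of 460.4 to 694.1. Levels below are on this log2 scale, and a level of one probe is never set against that of another. Between 76.1% and 86.5% of probes per array were well above background. The Glis3 probe was at -6.06, -5.41, -5.50 and -5.35 in WT replicates 1 to 4 and at -6.06, -6.43, -5.93 and -6.15 in Glis3KO2, with 3 of the WT arrays and 0 of the Glis3KO2 arrays well above background. Whether this probe lies in the deleted part is not given in the sources used here. Acinar markers had mean levels of 6.95 to 7.35 over the 8 arrays, with 9 of 9 well above background on all of them. Beta cell markers lay at 1.97 to 2.49 in WT and -0.17 to 0.51 in Glis3KO2. In whole tissue, fewer cells of a type and less RNA per cell cannot be told apart. On the first principal component, Glis3KO2 replicates 3 and 4 lay away from the remaining arrays.

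**Figure D1:**
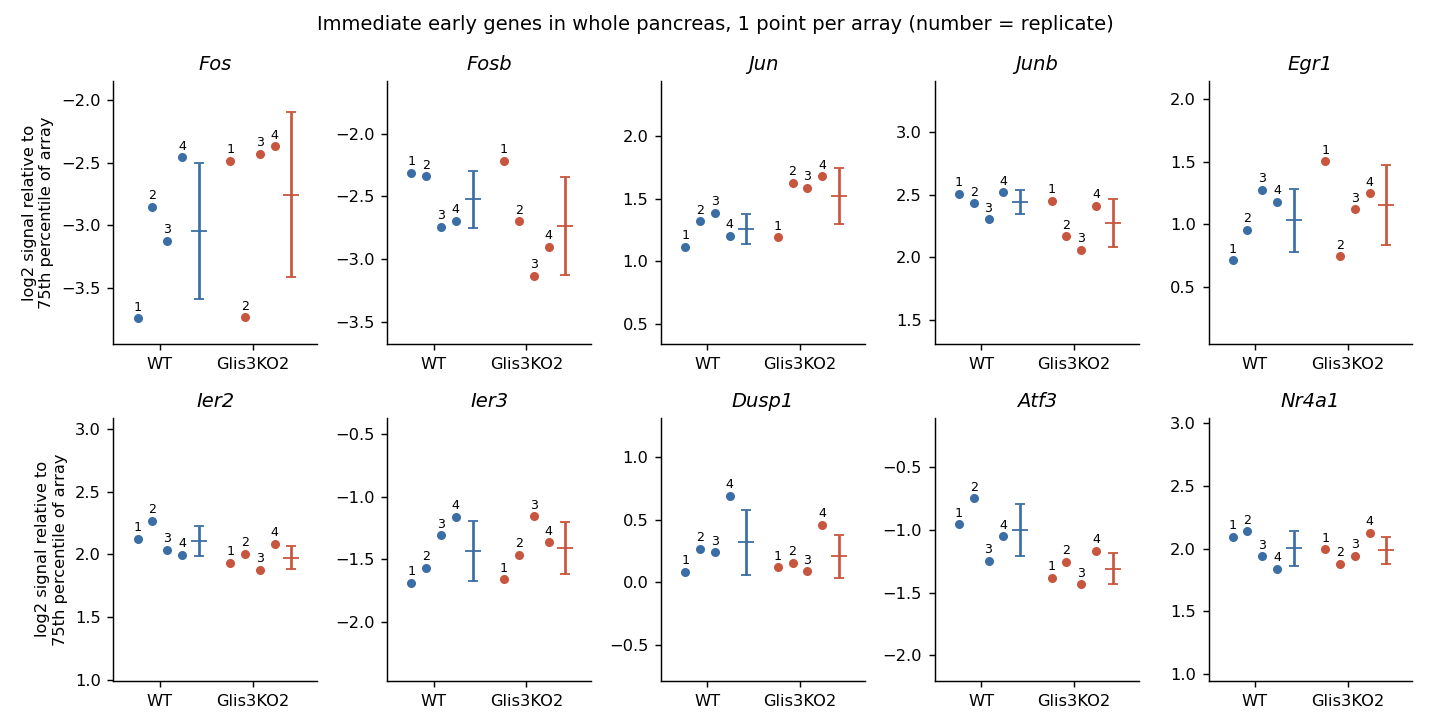
Level of each of the 10 genes (brightest probe) on each array, as log2 signal over the 75th percentile of that array. Points are arrays with their replicate number (WT blue, Glis3KO2 red), bars are mean ± SD (n = 4), and each panel spans the same number of log2 units. In every panel the points of the genotypes overlap, and Fos spans the widest range, from -3.74 to -2.37.

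No immediate early gene among the 10 passed the test between the genotypes. With limma and Benjamini-Hochberg adjustment over all 33239 probes, 0 of 10 had an adjusted p under 0.05, while 85 probes (0.256%) did. At an unadjusted p under 0.05 the count was 1 of 10 (Atf3), against 8.97% of all probes. Glis3KO2 was nominally higher for 4 genes and lower for 6, with a median log2 difference of -0.07 over the 10 genes and -0.01 over all tested probes. The groups overlapped for all 12 probes, while they did not overlap for 5.21% of the 33195 probes with a value on all arrays.

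Fos, the best known of these genes and one side of AP-1, was read from 8 to 10 spots per array. Its level was -3.74, -2.85, -3.12 and -2.46 in WT replicates 1 to 4, and -2.48, -3.74, -2.43 and -2.37 in Glis3KO2 replicates 1 to 4. WT replicate 1 and Glis3KO2 replicate 2 were lowest and nearly level with each other, while WT replicate 4 sat among the other Glis3KO2 arrays. The WT mean was -3.04 ± 0.54 and the Glis3KO2 mean -2.76 ± 0.66 (SD, n = 4), a log2 difference of 0.29 (SE 0.36, 95% interval -0.52 to 1.1, adjusted p = 0.868 by limma). The interval ran from 1.43-fold lower to 2.14-fold higher in Glis3KO2. Leaving out each array in turn gave differences of 0.06 to 0.62, and normexp background correction gave 0.11.

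Fos varied more between arrays than most probes did. Its residual SD within genotype was 0.60, at percentile 95 of all tested probes, whose median was 0.21. Fos signals were low (37.1 to 128.9), and this rank is over probes of any signal. Its spread was not compared with that of probes of like signal. Between the spots of an array the SD was 0.12, which covers spot noise within 1 hybridisation and leaves out error from labelling and hybridisation. The spots of WT replicate 1 spanned signals of 30.7 to 43.0, and those of Glis3KO2 replicate 3, the brightest array before scaling, 118 to 137. The lowest and highest arrays differed 2.59-fold after scaling.

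**Figure D2:**
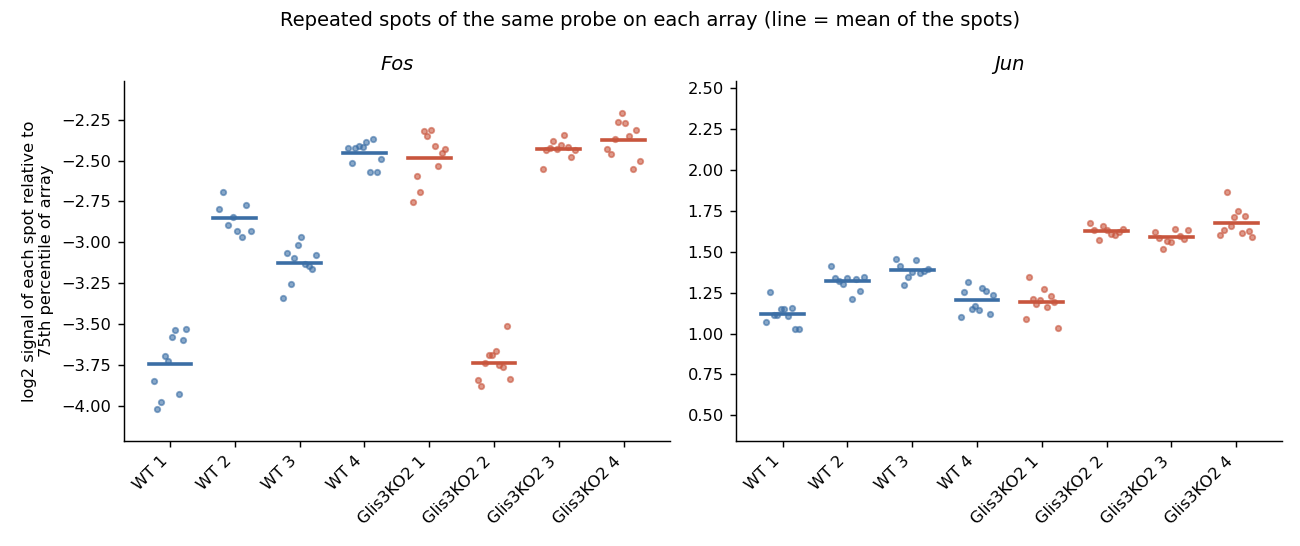
Every used spot of the Fos probe (left) and the Jun probe (right) on each array, as log2 signal over the 75th percentile of that array, with a line at the mean of the 8 to 10 spots. Both panels span the same number of log2 units. The Fos spots of WT replicate 1 and Glis3KO2 replicate 2 form a low cluster near -3.74.

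The 4 arrays with the highest Fos, from -2.48 to -2.37, were also the 4 on which Xist, the RNA that coats the inactive X chromosome, was well above background. Xist was at 4.72 to 5.10 on these and at -6.97 to -5.87 on the others, where Fos was -3.74 to -2.85. The 4 are 1 WT and 3 Glis3KO2 samples, so Xist was not balanced between the genotypes. Fos was the only one of the 10 genes highest on exactly these arrays, which 470 of 33195 probes (1.42%) also were. With the Xist level as a covariate, chosen after seeing the data, the Fos difference was -0.23 in place of 0.29, and no gene of the 10 passed.

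Fosb, a close relative of Fos that also pairs with Jun proteins, did not follow it. Its level was -2.31, -2.34, -2.74 and -2.70 in WT and -2.22, -2.70, -3.13 and -2.90 in Glis3KO2. Glis3KO2 replicate 1 was the highest array and replicate 3 the lowest, so the Glis3KO2 values enclosed all those of WT. The difference was -0.21 (SE 0.20, 95% interval -0.67 to 0.24, limma adjusted p = 0.808). Its signal before scaling stayed between 73.0 and 99.97 on all 8 arrays, an SD of 0.17 on the log2 scale, against 0.32 after scaling. The scaled values of so level a signal run opposite to the array's 75th percentile by construction, since scaling subtracts it. Scaling lowered the genotype difference of every probe by the same amount. Before scaling it was -0.04 for Fosb, -0.13 for Atf3, 0.01 for the brighter Junb probe and 0.04 for the brighter Ier2 probe. For the others it was 0.47 (Fos), 0.44 (Jun), 0.30 (Egr1), 0.20 (Ier3), 0.16 (Nr4a1) and 0.06 (Dusp1).

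Jun, the usual partner of Fos, was at 1.12, 1.32, 1.39 and 1.20 in WT and 1.19, 1.63, 1.59 and 1.68 in Glis3KO2. Glis3KO2 replicates 2, 3 and 4 were above every WT array, and replicate 1 fell among them. The difference was 0.26 (SE 0.13, 95% interval -0.03 to 0.56, adjusted p = 0.608 by limma), a fold of 1.20. Jun had 9 to 10 spots per array, with an SD between spots of 0.06. Its SD within genotype of 0.18 was below the middle of all probes, at percentile 37.7. Every alternative run kept Jun higher in Glis3KO2, with differences of 0.15 to 0.37 and adjusted p-values of 0.219 to 0.946.

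Junb, an AP-1 member that can damp the action of Jun, was measured by 2 probes that overlap on the genome. The brighter probe was at 2.50, 2.43, 2.30 and 2.52 in WT and 2.45, 2.17, 2.06 and 2.41 in Glis3KO2, a difference of -0.17 (SE 0.12, adjusted p = 0.733 by limma). The dimmer probe was at 2.18, 2.39, 2.46 and 2.32 in WT and 2.13, 2.21, 2.18 and 1.95 in Glis3KO2, a difference of -0.22 (SE 0.11, adjusted p = 0.591). Both scaled means were lower in Glis3KO2, with overlapping groups. Before scaling the differences were 0.01 for the brighter probe and -0.05 for the dimmer. The brighter probe had a log2 SD over the 8 arrays of 0.10 before scaling and 0.17 after. For the dimmer the SD was 0.22 before and 0.16 after. Array by array the probes did not follow each other: r was 0.01 and rho 0.05 over 8 arrays (exact permutation p = 0.974 and 0.935), and r was -0.67 within genotype, that is, over the deviations of all 8 arrays from their genotype means.

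Egr1, a zinc finger transcription factor and, with Fos, a common readout of recent signalling, was at 0.71, 0.96, 1.28 and 1.18 in WT and 1.5, 0.74, 1.12 and 1.25 in Glis3KO2. As for Fos, WT replicate 1 and Glis3KO2 replicate 2 were the lowest arrays. The difference was 0.12 (SE 0.18, 95% interval -0.29 to 0.54, limma adjusted p = 0.899). Egr1 had the third widest within-genotype spread of the 10 genes, after Fos and Fosb, at percentile 69.6 of all probes.

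Nr4a1, an orphan nuclear receptor induced by the same stimuli, was the steadiest of the 10 over all arrays. It was at 2.10, 2.14, 1.94 and 1.84 in WT and 2.0, 1.88, 1.94 and 2.13 in Glis3KO2, a range of 1.23-fold. The difference was -0.02 (SE 0.11, 95% interval -0.26 to 0.23, limma adjusted p = 0.982).

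Atf3, a stress-induced factor of the ATF family, had the largest difference of the 10 by size in the fit reported, but not in every alternative. Fos exceeded it under quantile normalization and Fos and Jun under scaling to the median. Fosb and Jun did so with weights per array, and Jun with the Xist covariate. Fos, Fosb or Jun also did so without WT replicate 2 or 4, or without Glis3KO2 replicate 1 or 2. Atf3 was at -0.96, -0.75, -1.24 and -1.05 in WT and -1.38, -1.25, -1.43 and -1.16 in Glis3KO2. WT replicate 3 lay within the Glis3KO2 range and the other WT arrays above it. The difference was -0.31 (SE 0.13, 95% interval -0.60 to -0.02), a fold of 1.24 in favour of WT, and it did not pass after adjustment (adjusted p = 0.525 by limma). It kept its sign under every alternative run, from -0.39 to -0.22, with adjusted p-values of 0.391 to 0.988.

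Dusp1, a phosphatase that switches off MAP kinases and so closes the response, was at 0.08, 0.27, 0.24 and 0.69 in WT and 0.12, 0.16, 0.09 and 0.46 in Glis3KO2. Replicate 4 was the highest array in both genotypes. The difference was -0.11 (SE 0.15, 95% interval -0.46 to 0.23, limma adjusted p = 0.881).

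Ier2, a small nuclear protein of the immediate early response, was measured by 2 probes. The brighter, of which 35 of 60 bases were placed on build mm7, was at 2.12, 2.27, 2.04 and 2.0 in WT and 1.93, 2.0, 1.88 and 2.08 in Glis3KO2, a difference of -0.13 (SE 0.10, adjusted p = 0.756 by limma). The dimmer was at -2.35, -2.27, -2.21 and -2.10 in WT and -1.98, -2.19, -2.25 and -2.38 in Glis3KO2, a difference of 0.03 (SE 0.12, adjusted p = 0.964). Over the arrays the probes were related at r = -0.52 and rho = -0.67 (exact permutation p = 0.187 and 0.0831). Ier3, an early response gene linked to cell survival, was at -1.69, -1.57, -1.31 and -1.16 in WT and -1.66, -1.46, -1.16 and -1.36 in Glis3KO2, a difference of 0.02 (SE 0.15, 95% interval -0.33 to 0.37, adjusted p = 0.985).

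**Figure D3:**
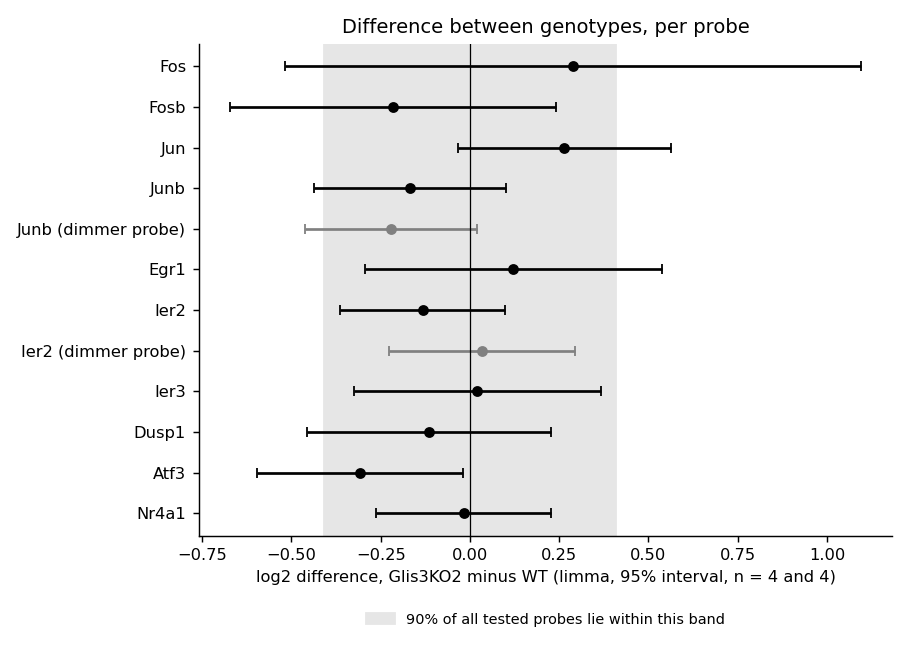
Log2 difference between genotypes (Glis3KO2 minus WT) for each of the 12 probes, with its 95% interval from limma (n = 4 and 4); grey points are the dimmer probes of Junb and Ier2. The shaded band holds 90% of all tested probes by size of difference. All 12 estimates lie inside the band, the Fos interval is the widest, and only that of Atf3 leaves out 0.

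The intervals are for the difference between the WT and the Glis3KO2 arrays, in which slide and genotype cannot be told apart. The 95% interval of Nr4a1 reached a 1.20-fold decrease and a 1.17-fold increase. That of the brighter Ier2 probe reached a 1.29-fold decrease and a 1.07-fold increase, and that of the dimmer a 1.17-fold decrease and a 1.23-fold increase. For Fos the interval reached a 2.14-fold increase. The upper bounds of Jun and Egr1 lay at 1.48-fold and 1.45-fold. A p-value above the threshold does not show that the genotypes have the same level.

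The genes were then compared with one another, to see whether a pancreas high for one of them was high for the rest. As read from the brightest probes, they did not rise and fall as a block. The 2 probes of Junb (r = 0.01) and the 2 of Ier2 (r = -0.52) did not follow each other either. A low r between genes therefore cannot show that the genes themselves vary apart. Over the 45 pairs the Pearson r across 8 arrays was positive for 24 and negative for 21, with a median of 0.07. It was 0.7 or more for 2 pairs and -0.7 or less for 3. The 4 arrays of a single genotype, on 1 slide, are too few for a correlation of their own. The r within genotype given below pools the deviations of all 8 arrays from their genotype means, with no test. All pairs beyond those with Fos were added after seeing the data.

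**Figure D4:**
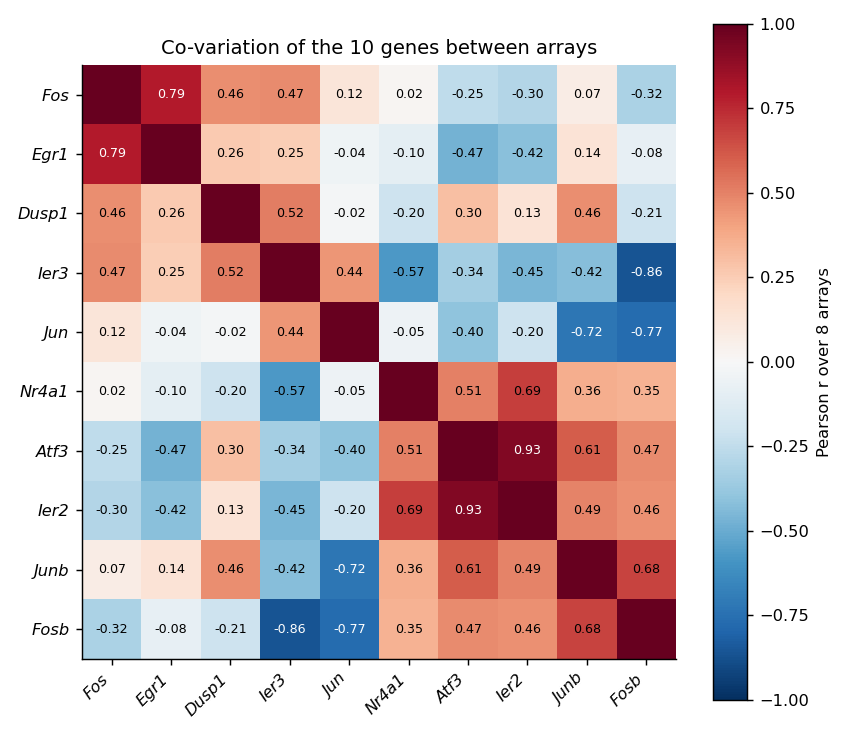
Pearson r over the 8 arrays for each pair of the 10 genes (brightest probes), with red for pairs that rose together and blue for pairs that ran opposite. Fos and Egr1 (0.79) and Ier2 and Atf3 (0.93) are the strong positive pairs, and Fosb runs opposite to Ier3 (-0.86) and Jun (-0.77).

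Fos went with 6 of the other 9 genes in sign, and with none past the adjusted threshold (exact permutation test, adjusted over 9). With Egr1 r was 0.79 and rho 0.52 (exact permutation p = 0.0228 and 0.197, adjusted 0.206 and 0.490). Without WT replicate 1 and Glis3KO2 replicate 2, the 2 arrays farthest from the median of Fos, r with Egr1 was 0.19. Dropping both also narrows the range of Fos, so this fall cannot tell whether the relation rests on them alone. Without WT replicate 1 alone r with Egr1 was 0.69, and without Glis3KO2 replicate 2 alone 0.70. Within genotype r with Egr1 was 0.78. The next were Ier3 (r = 0.47) and Dusp1 (r = 0.46). Its classic partner Jun had r = 0.12, Junb 0.07 and Nr4a1 0.02, while Atf3 (-0.25), Ier2 (-0.30) and Fosb (-0.32) were negative. Over all probes, 3.22% had r of 0.7 or more with Fos, against 1 of these 9.

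Among all 45 pairs 1 passed after adjustment. Ier2 and Atf3 had r = 0.93 and rho = 0.86 (exact permutation p = 0.00107 and 0.0107, adjusted 0.0480 and 0.327 over 45). Without WT replicate 2 and Glis3KO2 replicate 3 r was 0.75 (p = 0.0833, exact permutation over 6 arrays), and within genotype it was 0.90. The call was lost under normexp background correction (r = 0.82, adjusted p = 0.294), quantile normalization (r = 0.89, adjusted p = 0.0725) and scaling to the median (r = 0.90, adjusted p = 0.0675). It was also lost on leaving out any 1 array but WT replicate 4, with r from 0.84 to 0.94. Without WT replicate 4 it held (r = 0.98, adjusted p = 0.00893). With the dimmer Ier2 probe in place of the brighter, r with Atf3 was -0.40 and rho -0.45 (exact permutation p = 0.335 and 0.267).

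**Figure D5:**
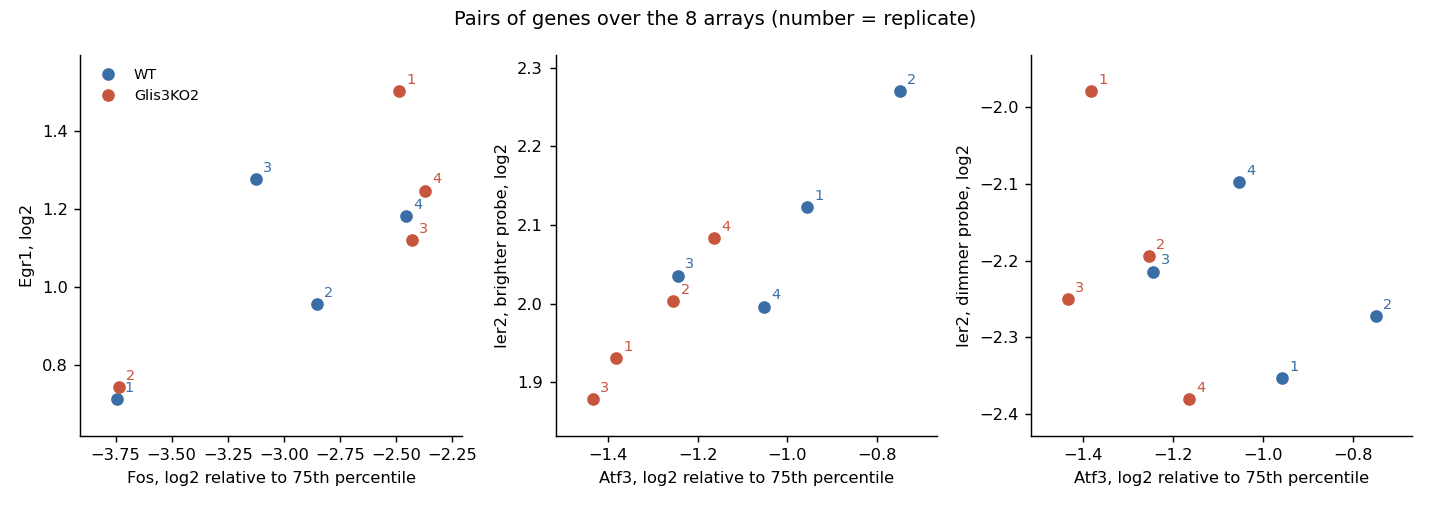
Levels on each array, as log2 relative to the 75th percentile, of Egr1 against Fos (left), the brighter Ier2 probe against Atf3 (middle) and the dimmer Ier2 probe against Atf3 (right), with replicate numbers. On the left, WT replicate 1 and Glis3KO2 replicate 2 sit alone at the low corner, and the rise in the middle panel (r = 0.93) is not seen with the dimmer probe (r = -0.40).

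The opposite-running pairs joined Fosb with Ier3, Fosb with Jun, and Jun with Junb. Scaled Fosb ran opposite to the array's 75th percentile (r = -0.89), by construction as given above. The part of this scaling in the Fosb pairs, or in the pair of Jun and Junb, was not tested. Fosb and Ier3 had r = -0.86 and rho = -0.81 (exact permutation p = 0.00838 and 0.0218, adjusted 0.189 and 0.327), and r = -0.76 without the 2 arrays farthest from the median of Fosb. This pair passed under quantile normalization (adjusted p = 0.0368) and under scaling to the median (0.0156). Fosb and Jun had r = -0.77 (exact permutation p = 0.0297, adjusted 0.335), and Jun and Junb, both partners for Fos proteins, had r = -0.72 (exact permutation p = 0.0450, adjusted 0.403). With the dimmer Junb probe r with Jun was -0.38 (exact permutation p = 0.352), and under scaling to the median r with the brighter probe was -0.45.

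The mean of the 10 centred profiles was lowest in Glis3KO2 replicate 2 (-0.16) and WT replicate 1 (-0.11) and highest in Glis3KO2 replicate 4 (0.12) and WT replicate 4 (0.10). The profiles were not brought to equal spread, so Fos, the widest, weighs most: it lay at -0.84 from its own mean on both of the lowest arrays. The genotype difference of the mean profile was -0.03. Over 8 arrays, among 19111 genes, those most like this mean profile were Mrps16 (r = 0.97), Tonsl (0.95), Fam83c (0.95), Rfc2 (0.95) and Acer1 (0.94). Those most like Fos alone were Wdr67 (0.97), Tedc1 (0.97), Ero1a (0.96), Erfe (0.95) and Nr2f6 (0.95), and neither set holds a gene of the wider immediate early list. These are the highest of many correlations over few arrays and are given as a description.

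The cell makeup of the samples was read beside Fos from 10 marker lists. Their mean levels correlated with Fos at r from -0.47 (endothelium) to 0.55 (erythroid), and the lowest adjusted p was 0.669 (exact permutation, over 13 measures). The share of probes well above background had r = 0.53 and rho = 0.43 with Fos (exact permutation p = 0.196 and 0.299), 0.86 within genotype and 0.04 without 2 arrays. The first principal component had r = 0.62 and rho = 0.76 with Fos (exact permutation p = 0.0702 and 0.0368, adjusted 0.669 and 0.478), 0.64 within genotype, and r = 0.49 without Glis3KO2 replicates 3 and 4. The part of these in the level of Fos was not tested further. Leukocyte markers lay at -0.73 to 0.05 in WT and -0.48 to -0.20 in Glis3KO2, and acinar markers at 7.03 to 7.35 and 6.95 to 7.23.

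A wider list of 67 other early response genes was read with the same fit, of which 65 were on the array and 60 were tested. In Glis3KO2, 0 were higher (0.0812% of all probes were) and 1 was lower (0.174% of all probes). At an unadjusted p under 0.05 there were 5 of 60, near the 8.97% of all probes. The median difference was -0.03, with 25 genes positive and 35 negative. None of the 8 tested AP-1 and CREB/ATF relatives, 11 zinc finger and nuclear receptor factors or 7 heat shock genes passed.

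The gene that fell was Ccl2, a chemokine that draws monocytes and is induced by inflammatory and stress signals. It was at -0.06, -0.06, 0.16 and -0.08 in WT and -0.70, -1.02, -0.87 and -0.75 in Glis3KO2. All 4 Glis3KO2 arrays were below all 4 WT arrays. The groups did not overlap, in either direction, for 3 of the 60 genes, near the 5.21% of all probes. The others were Hbegf, also lower in Glis3KO2, and Dusp4, which was higher there (difference 0.36). The Ccl2 difference was -0.83 (SE 0.11, 95% interval -1.08 to -0.57, adjusted p = 0.0253 by limma). The size held between -0.87 and -0.72 in all alternatives run, but the call ended without any 1 of WT replicates 1 to 4 or Glis3KO2 replicates 2, 3 or 4 (adjusted p 0.0666 to 0.116), without Glis3KO2 replicates 3 and 4 together (0.202), with no filter on dim probes (0.0511) and with the Xist covariate (0.137). Of the 10 marker lists, those of beta cells, of nerve and glia and, barely, of hepatocytes also had mean levels that did not overlap between the genotypes. How often lists of this kind separate was not tested. Beta cell markers (7 of 7 tested) were lower in Glis3KO2, as given above. Nerve and glia markers (5 of 5 tested) lay at -1.36 to -1.18 in WT and -1.74 to -1.4 in Glis3KO2. Hepatocyte markers (3 of 3 tested, 2 of them well above background on all arrays) were on the higher side in Glis3KO2, at -2.0 to -1.49 against -2.56 to -2.0. Their ranges were apart only beyond these digits, with the highest WT array at -2.0002 and the lowest Glis3KO2 array at -1.9988. The part of these cells in the Ccl2 difference was not tested.

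Of the same 60 genes, 5 had r of 0.7 or more with Fos (8.33%, against 3.22% of all probes), and 5 had r of -0.7 or less (against 1.73% of all probes). The positive ones were Myc (0.79), a growth factor-induced transcription factor, Hspa8 (0.78), a heat shock cognate chaperone, Sgk1 (0.78), a serum- and glucocorticoid-induced kinase, Cyr61 (0.76), a secreted matrix protein, and Gadd45g (0.71), a stress sensor. The negative ones were Mafk (-0.74), a small Maf factor, Btg1 (-0.73), an antiproliferative gene, Per1 (-0.73), a circadian clock gene, Ddit3 (-0.72), a factor of endoplasmic reticulum stress, and Ier5 (-0.71). They were named after their values were seen, and none passed. The lowest adjusted p over the 60 genes was 0.336 for r and 0.0685 for rho, the latter at Btg1 (rho = -0.95, exact permutation test).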

How the data were processed

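Cy3-labelled RNA from 4 WT and 4 Glis3KO2 pancreas samples was hybridised to Agilent 1-colour mouse arrays, and groups were taken from the sample titles. The deposited values are the linear intensity of each spot, made by the authors with Agilent Feature Extraction 9.5.3.1 per the file headers (9.5 per the submitters' processing notes), background-corrected and not scaled between arrays. The deposited series table held the same 45018 values per array. Outlier spots (56 to 130 per array) were left out, no spot was saturated, and repeated spots were averaged. Processed signals were put on the log2 scale, the array's 75th percentile was subtracted, and the test was run for probes well above background on at least 4 of 8 arrays. Genotypes were compared with limma 3.58.1 (lmFit, eBayes, 2-sided) in R 4.3.3, adjusting by Benjamini-Hochberg over every tested probe, with a threshold of 0.05. The fit was tested on simulated data. Each gene was represented by its brightest probe. The number of arrays limits precision.

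Correlations used the exact permutation test over all 40320 pairings of 8 arrays, 2-sided. The 10 genes, the lists and the tests were chosen with earlier results of these data known. Named genes were all 10 with every probe, genes of the wider list past the threshold, and the 5 genes most like the mean profile. Others named were chosen after their values were seen. Alternatives were background correction, scaling, filters, the deposited table, variance models, a replicate block, the mean of a gene's probes, arrays left out and, added later, an Xist covariate. Same-numbered WT and Glis3KO2 arrays were not treated as pairs: the labels give no shared litter or batch, and the correlations of their deviations, 0.13, 0.09, 0.24 and -0.04, did not all pass 0.1. Promoters came from the RefSeq table of build GRCm38.p6.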

Additional observations from a re-analysis of the deposited data

Results flagged for a closer look

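Fos was low in Glis3KO2 replicate 2, at -3.74 against -2.48 to -2.37 in the other 3 Glis3KO2 arrays. The gap to the nearest of them was 0.917 of the whole range of the group, above Dixon's 95% critical value for 4 samples. It was the 1 such value among the 24 groups of 4 arrays looked at (12 probes in 2 genotypes), where chance marks about 1 group in 20. All 10 spots of the probe on that array were low, between -3.88 and -3.51. It was also the only Glis3KO2 array with Xist not well above background, at -6.03 against 4.72 to 4.86 on the other 3. Fos was as low in WT replicate 1 (-3.74), where Xist was at -6.27. WT replicates 2 and 3, also without Xist, had Fos at -2.85 and -3.12. The part of Xist or sex in the low value was not tested.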

How the results depend on the processing

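No gene of the 10 passed an adjusted p of 0.05 in any alternative, with 202 values computed and a lowest adjusted p of 0.219 (Jun). Of these values 16 had the other sign from that reported, in Dusp1, Egr1, Fos, Fosb, Ier2, Ier3 and Nr4a1, and Fos ranged from -0.23 to 0.62. The median difference of the 10 genes stayed between -0.12 and -0.03, and the count of genes correlated with Fos past the threshold stayed at 0. Over all probes, 85 passed in the fit reported, 51 with no filter on dim probes, 142 with a trended and robust variance, 11 without Glis3KO2 replicates 3 and 4 and 27 with the Xist covariate. Leaving out 1 array gave 35 to 96. Of the wider list, 1 gene passed in the fit reported, 0 with no filter, 0 without Glis3KO2 replicates 3 and 4, 0 with the Xist covariate, and 0 to 1 without 1 array. With the replicate number as a block, 15 probes passed, 0 of the 10 genes and 0 of the wider list (Ccl2 at adjusted p = 0.200). Of the 4 WT arrays, 3 correlated best with the Glis3KO2 array of the same number, a hint from the data and not from the design. Fits with fewer arrays have fewer residual degrees of freedom, and for the other changes the cause was not tested. No other scaling moved the median of all probes by more than 0.03. All 12 probes were well above background, but Fos signals were low (37.1 to 128.9), and its difference was 0.11 under normexp background correction against 0.29 reported.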
